A study of Mus musculus with 2 samples.

Results

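Fatty acid oxidation and ketone body metabolism are represented here by 32 named genes, chosen as a list of symbols with no threshold on their values. The list was chosen with earlier results of these data known. Of the 32 genes, 30 were measured by a probe set that is annotated to a single gene, among 17305 genes in all. Of the 30, 27 reached the median of all gene values (5.48 on the log2 scale) on at least 1 array. Acsl1 and Acsl3, long-chain acyl-CoA synthetases, were not analysed here as single genes. The list divides into 16 enzymes of mitochondrial oxidation, 4 of peroxisomal oxidation, 3 ketone body enzymes, 4 acyl-CoA synthetases, 2 acyl-CoA thioesterases and 3 genes known to respond to the fatty acid sensing PPAR nuclear receptors.

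The graft was small intestinal epithelium on the colon. Epithelial cells from EGFP-transgenic donors of C57BL6 background were cultured as organoids, which are epithelial cultures that contain stem cells, for 7 days and placed in the colonic lumen of C57BL6 recipients, and the graft was taken after 4 weeks. The other sample was normal colonic epithelium of a C57BL6 control mouse. Both were cut out by laser microdissection, epithelium from serial sections of a specimen was pooled, and 4.33 ng of total RNA was amplified per single-channel array. With 1 array for each group, the differences below have no replicate check and no p-value. Age, sex and feeding state do not appear in the labels, and no ungrafted small intestine was analysed here.

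Long-chain fatty acids are activated to acyl-CoA by synthetases, pass into mitochondria as carnitine esters and are shortened there by repeated rounds of dehydrogenation, hydration, dehydrogenation and thiolysis. Peroxisomes run a related cycle on very-long-chain and dicarboxylic acids. Acetyl-CoA can be turned into ketone bodies, which other cells convert back, and colonic epithelial cells are known to oxidise butyrate made by bacteria as a major fuel, whereas small intestinal enterocytes handle dietary long-chain fat.

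Each difference below is on the log2 scale and was taken as graft minus colon, so a positive one means a higher level in the graft. The only error estimate in the data is the disagreement between probe sets of 1 gene. Over 586 genes, the differences of the brightest pair of probe sets of a gene disagreed with an SD of 0.48, the probe set SD. It measures the gap between a pair of such differences and not the error of 1 difference, and it leaves out variation between animals. As a yardstick for a single difference it is therefore a wide one. Among the 9392 genes that reached the median level, differences had a median of -0.05 and ran from -1.07 at the 5th percentile to 0.81 at the 95th. The table holds no detection calls, so a difference against a value below the median level may be understated by an unknown amount.

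Tissue markers, in lists also chosen with earlier results of these data known, went with the labels. The 9 measured markers of small intestinal enterocytes all exceeded 2-fold in the direction of the graft, at levels of 7.76 to 11.09 on the graft array and 4.52 to 8.09 on the colon array. The 8 colonic markers all exceeded 2-fold in the direction of the colon, at levels of 4.46 to 6.76 on the graft array and 8.04 to 11.74 on the colon array. Many of the lower values of these lists lay below the median level, and those differences may be understated. The 12 general epithelial markers had a median of 0.30 and ran from -0.71 to 0.91. The 8 muscle and fibroblast markers were all lower in the graft. Of these 7 reached the median level, beside 54.0% lower among all such genes. The 8 markers had a median of -0.33 and ran from -1.76 (Lum, 3.38-fold) to -0.02. Their levels were 4.85 to 7.37 in the graft and 4.90 to 7.99 in the colon. Their part in the results below was not tested. The 5 measured leukocyte markers had a median of 0.22 and the 3 endothelial markers one of -0.09. Of 4 measured adipocyte markers, Adipoq lay at 4.55 in grafted and 4.42 in colonic epithelium, below the 20th percentile of each array (4.75 on the graft array and 4.74 on the colon array). Plin1 and Retn differed by 0.01 and 0.30 and stayed below the median level on both arrays, and Cidec is described further on. In such bulk samples, fewer cells of a type and less RNA per cell cannot be told apart.

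The classes of the list went different ways. Mitochondrial oxidation genes were mostly slightly lower in the graft, as were 3 of the 4 peroxisomal genes, and the ketone body enzymes were slightly higher. Among the 9392 genes reaching the median level, 54.0% were lower and 41.6% higher. The largest single differences belonged to Plin2, a coat protein of lipid droplets, which was 4.01-fold lower in the graft, and to the synthetase Acsl5, which was 2.60-fold higher. These were the only members at least 2-fold apart, 1 of 30 lower (5.68% of the 9392 genes were) and 1 of 30 higher (3.55% of those genes), so the list as a whole held no more large differences than the background. Between 2-fold and 1.5-fold lay Cpt1a and Acadl on the lower side and Bdh1 and Acsl4 on the higher side, which makes 3 members lower by at least 1.5-fold (background 14.6%) and 3 higher (8.42%). At 4-fold, Plin2 was the only lower member, just past the threshold (background 1.37%), and 0 were higher (1.10%).

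Differences beyond the probe set SD were found for 5 members lower in the graft (Cpt1a, Acadl, Acadm, Acot8 and Plin2, against a background of 19.1%) and for 3 members higher (Bdh1, Acsl4 and Acsl5, background 11.0%). The other 22 lay within it. Over all 30 measured members, 18 were lower in the graft, 11 higher and 1 equal, with a median difference of -0.22. Of all genes reaching the median level, 54.0% were lower and 41.6% higher. With quantile normalization of the arrays these shares became nearly equal, with 4697 genes lower and 4692 higher.

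**Figure D1:**
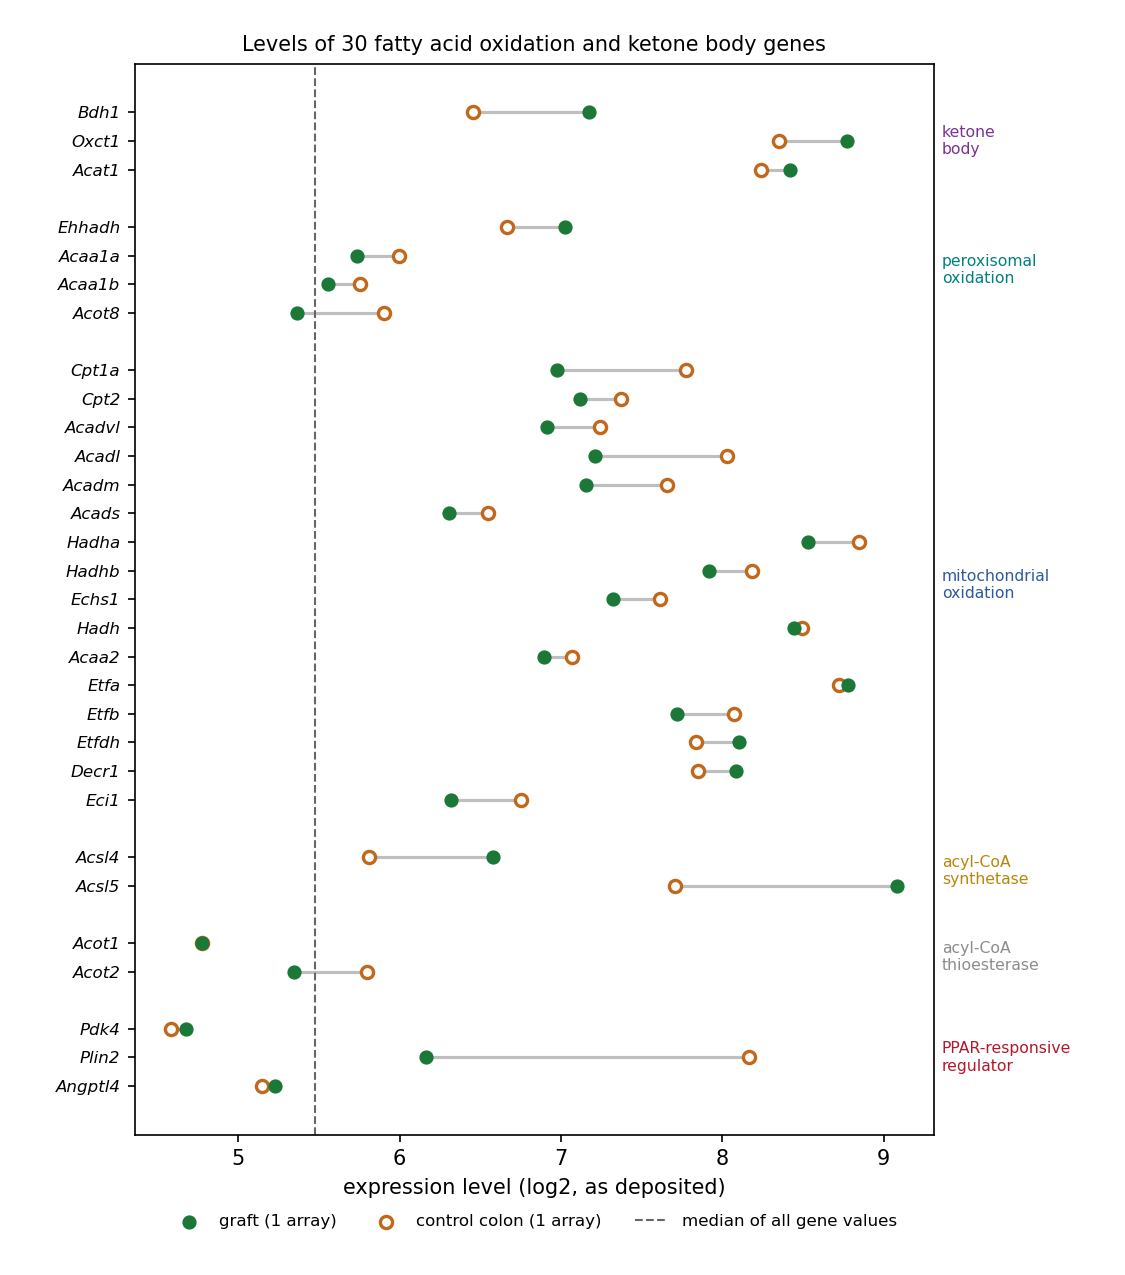
Level of each of the 30 measured genes on the log2 scale (horizontal axis), with a filled green point for the graft array, an open orange point for the control colon array and a dashed line at the median of all gene values, 5.48. Most mitochondrial genes have the graft point slightly left of the colon point, the 3 ketone body enzymes have it to the right, Plin2 has the widest gap, and the 2 points of Acot1 coincide.

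Mitochondrial oxidation begins with the carnitine shuttle. Cpt1a, the carnitine palmitoyltransferase of the outer membrane that commits long-chain fatty acids to import, was at 6.97 in grafted and 7.77 in colonic epithelium, a difference of -0.80. Cpt2, which returns the fatty acid to CoA inside, was at 7.12 on the graft array and 7.37 on the colon array (-0.25). Both were lower in the graft, Cpt1a beyond the probe set SD and Cpt2 within it.

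The acyl-CoA dehydrogenases carry out the opening step of each round, each on its own range of chain lengths. Acadl, for long chains, was at 7.21 in grafted and 8.03 in colonic epithelium, a difference of -0.82 that was the widest of the mitochondrial class. Acadm, for medium chains, was at 7.16 on the graft array and 7.66 on the colon array (-0.50). Acadvl, for very long chains, and Acads, for short chains such as butyryl-CoA, differed by -0.33 and -0.25. All 4 dehydrogenases were thus lower in the graft, Acadl and Acadm by more than the probe set SD.

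The remaining steps of the round differed less. Hadha and Hadhb encode the subunits of the mitochondrial trifunctional protein, which joins hydration, dehydrogenation and thiolysis of long chains. Hadha was at 8.53 in grafted and 8.84 in colonic epithelium (-0.31). Hadhb was at 7.92 on the graft array and 8.18 on the colon array (-0.27), and its second probe set, at 7.93 in grafted and 8.08 in colonic epithelium, differed by -0.15. The subunits of this complex therefore lay within the probe set SD of no difference and of each other. For shorter chains, the hydratase Echs1 differed by -0.29, the hydroxyacyl-CoA dehydrogenase Hadh by -0.05 and the thiolase Acaa2 by -0.17. With quantile normalization the difference of Hadh was 0.00029, so it has no settled direction.

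The head-to-head position of Hadha and Hadhb is shown because these subunits had nearly the same difference. Such similarity was not particular to this pair, since Echs1 (-0.29) and Acadvl (-0.33) lay beside them. A link between position and difference was not tested. In the RefSeq annotation of GRCm38.p6 their start sites lie 273 bases apart on opposite strands of chromosome 5, and the windows of 250 bases before to 50 bases after each start share 228 bases. The window of Hadhb, chr5:30155003-30155302 on the plus strand, reads as follows, with the bases that also belong to the window of Hadha in capitals.
Hadhb: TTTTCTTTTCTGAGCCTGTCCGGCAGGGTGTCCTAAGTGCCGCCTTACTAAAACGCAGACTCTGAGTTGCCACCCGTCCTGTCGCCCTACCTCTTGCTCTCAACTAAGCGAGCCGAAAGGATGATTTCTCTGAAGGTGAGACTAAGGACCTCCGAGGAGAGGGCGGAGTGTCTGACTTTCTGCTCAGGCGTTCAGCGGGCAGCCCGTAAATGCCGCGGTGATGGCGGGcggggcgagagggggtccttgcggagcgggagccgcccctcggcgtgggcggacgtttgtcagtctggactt

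Over the steps from the carnitine shuttle to the thiolases, 11 of 11 genes were lower in the graft, beside 54.0% of all genes reaching the median level. Their differences ran from -0.82 to -0.05, and that of Hadh vanished with quantile normalization. Of the 11, 3 were beyond the probe set SD, and this grouping leaves out the 3 mitochondrial genes that were higher. The electron transfer genes went both ways. Etfa and Etfb, the subunits of the flavoprotein that takes electrons from the acyl-CoA dehydrogenases, differed by 0.05 and -0.36, and Etfdh, which hands the electrons to ubiquinone, was at 8.10 on the graft array and 7.84 on the colon array (0.26). The auxiliary enzymes for unsaturated fatty acids were split as well. The dienoyl-CoA reductase Decr1 was at 8.08 in grafted and 7.85 in colonic epithelium (0.23), and the enoyl-CoA isomerase Eci1 was at 6.32 on the graft array and 6.75 on the colon array (-0.43).

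Together, 13 of 16 mitochondrial genes were lower in the graft (12 of 16 with quantile normalization) and 3 higher, beside 54.0% lower among all genes reaching the median level. Their median was -0.28, and 0 were at least 2-fold apart. All 16 lay above the median level on both arrays, at 6.30 to 8.78 in the graft and 6.55 to 8.84 in the colon. Most of these differences were individually within the probe set SD. Subtracting the epithelial marker median of 0.30, a comparison added after the values were seen, made 16 of 16 lower, but it moves all genes alike and made 81.7% of those reaching the median level lower.

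**Figure D2:**
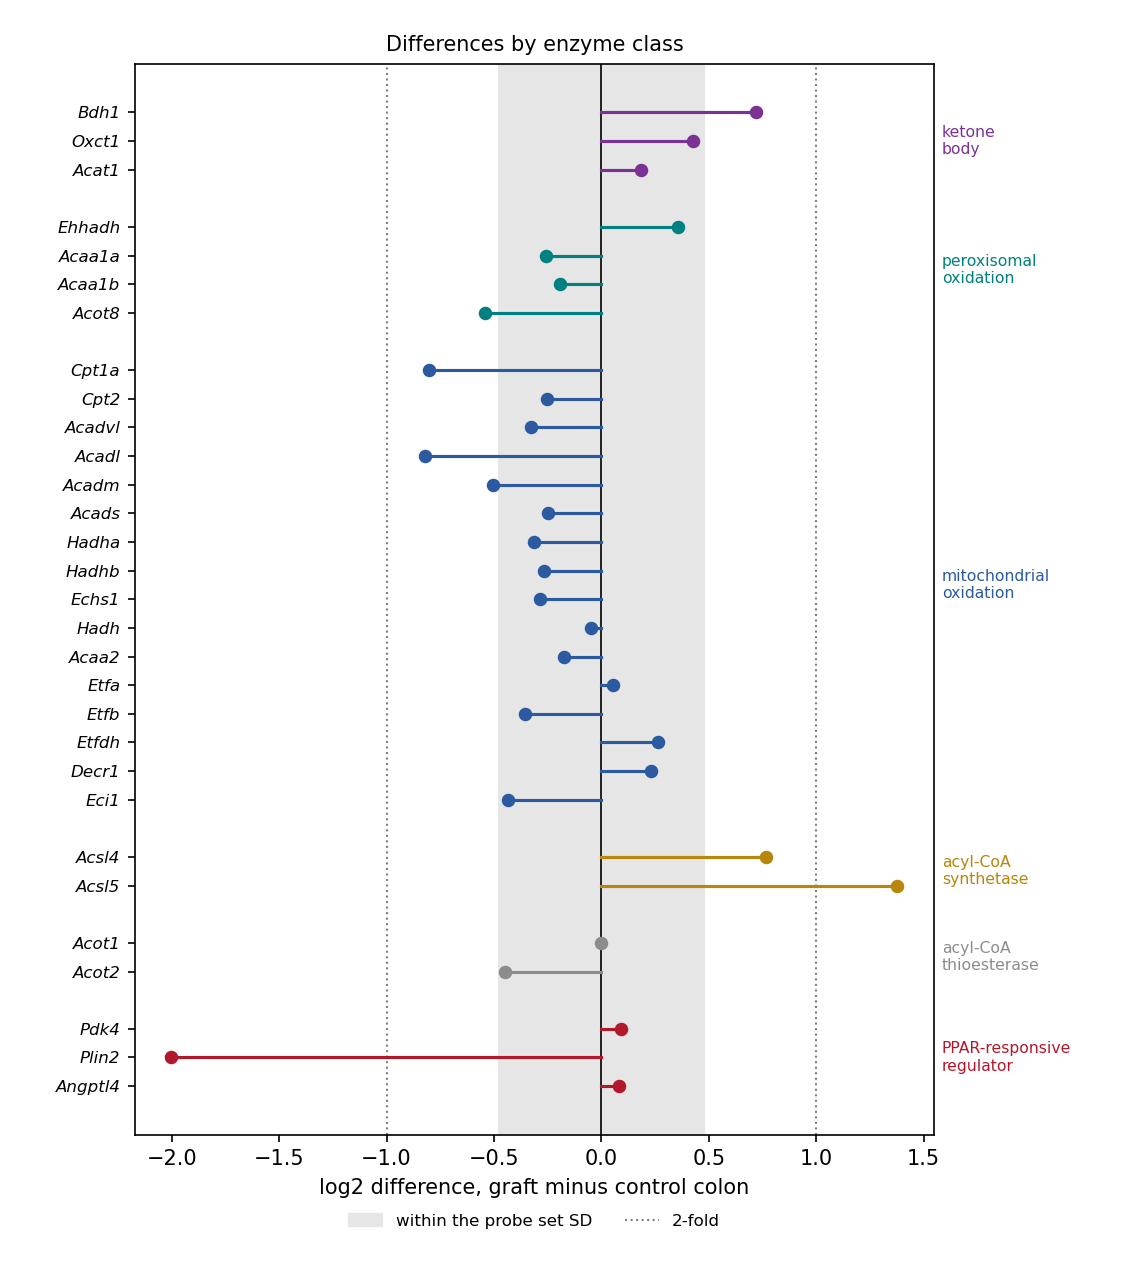
Log2 difference, graft minus control colon (horizontal axis), of the 30 measured genes, coloured by class. Grey marks the probe set SD of 0.48 on either side of 0 and dotted lines mark 2-fold: Plin2 (-2.00) and Acsl5 (1.38) are the only points outside the dotted lines, and the mitochondrial genes lie between -0.82 and 0.26.

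The peroxisomal members had a median difference of -0.22, close to that of the mitochondrial class. Of the 4, 3 were lower in the graft and 1 higher, beside 54.0% lower and 41.6% higher among all genes reaching the median level. Ehhadh, the bifunctional enzyme that performs hydration and dehydrogenation in peroxisomes, was at 7.02 in grafted and 6.66 in colonic epithelium (0.36). The peroxisomal thiolases Acaa1a and Acaa1b differed by -0.26 and -0.19, and since they are close copies of each other whose transcripts may bind the same probes, their values are uncertain as values of single genes. Acot8, a peroxisomal thioesterase, was at 5.36 on the graft array and 5.91 on the colon array (-0.54), and reached the median level only in the colon. Without the thiolases the peroxisomal median was -0.09, and Ehhadh was the only peroxisomal member above the 75th percentile of all gene values.

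The ketone body enzymes were higher in the graft, 3 of 3 as deposited, beside 41.6% of all genes reaching the median level, and 2 of 3 relative to the epithelial markers, beside 18.3% of those genes. Their median was 0.42, and none was at least 2-fold apart. Bdh1, the dehydrogenase that interconverts acetoacetate and hydroxybutyrate, was at 7.17 in grafted and 6.45 in colonic epithelium, a difference of 0.72 that was beyond the probe set SD. Oxct1, the CoA transferase with which cells outside the liver use ketone bodies, was at 8.77 on the graft array and 8.35 on the colon array (0.42). Acat1, the mitochondrial thiolase that joins or splits acetoacetyl-CoA, was at 8.42 in grafted and 8.24 in colonic epithelium (0.18). Oxct1 and Acat1 were within the probe set SD, and Acat1 turned to -0.12 relative to the epithelial markers. Bdh1 and Acat1 act in both the making and the use of ketone bodies and Oxct1 in their use. The values therefore describe ketone body enzymes and not ketogenesis as such.

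Set against each other, the 3 ketone body enzymes spanned 0.18 to 0.72 and the 16 mitochondrial oxidation genes -0.82 to 0.26, so the ranges overlapped between Acat1 on one side and Etfdh and Decr1 on the other. The peroxisomal range, -0.54 to 0.36, overlapped both. The medians of the mitochondrial and ketone body classes differed in sign under each of the processing alternatives run, and this was not tested because the genes of a class are not replicates.

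**Figure D3:**
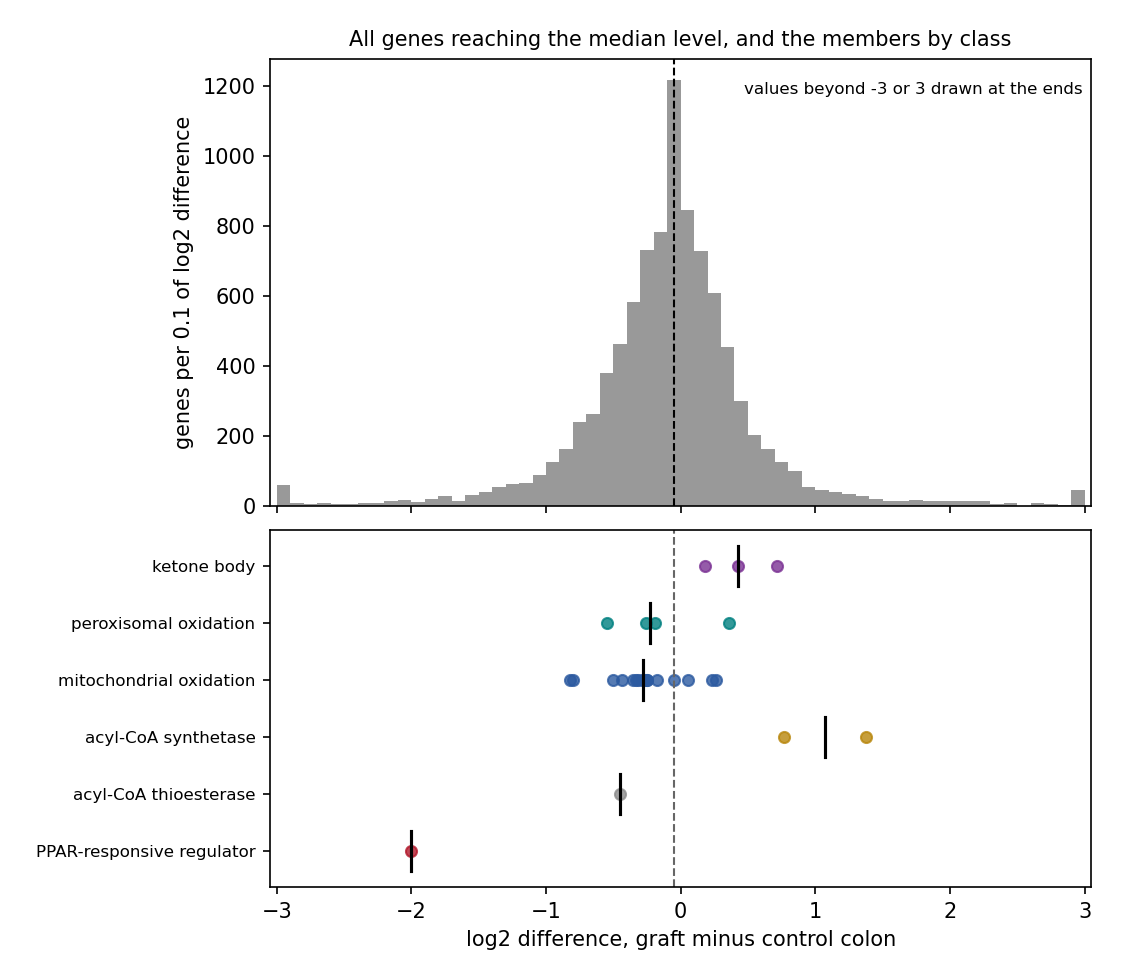
Upper panel, number of genes per 0.1 of log2 difference, graft minus control colon, for the 9392 genes reaching the median level. Lower panel, the 27 members reaching that level as points by class, with a black bar at the class median and a dashed line at the median of all those genes, -0.05; the ketone body points lie right of the dashed line, most mitochondrial points left of it, and Pdk4, Angptl4 and Acot1 are not drawn because they did not reach the level.

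The measured genes of long-chain fatty acid activation were higher in the graft. Acsl5, an acyl-CoA synthetase abundant in intestinal epithelium, was at 9.08 on the graft array and 7.71 on the colon array, a difference of 1.38. Acsl4, which prefers arachidonic acid and other polyunsaturated fatty acids, was at 6.58 in grafted and 5.81 in colonic epithelium (0.77). Both measured synthetases were thus higher by more than the probe set SD. A probe set annotated to both Acsl3 and Utp14b was at 6.99 on the graft array and 8.35 on the colon array (-1.36) and cannot be assigned to either gene.

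The thioesterases release fatty acids from CoA. Acot2, the mitochondrial form, was at 5.35 in grafted and 5.80 in colonic epithelium (-0.45) and reached the median level only in the colon. Acot1, the cytosolic form and a close copy of Acot2, had exactly the same value of 4.77 on both arrays, as did 12.6% of all 17305 genes. It lay below the median level, and its value gives no measure of a difference.

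The members known as PPAR-responsive differed among themselves. Plin2 was at 6.16 on the graft array and 8.16 on the colon array, a difference of -2.00, and 1.36% of the genes reaching the median level had a lower one. Pdk4, the kinase that shuts off pyruvate dehydrogenase when fat is burned, was at 4.68 in grafted and 4.58 in colonic epithelium, below the 20th percentile on both arrays. Angptl4, a secreted inhibitor of lipoprotein lipase, was at 5.23 on the graft array and 5.15 on the colon array, below the median level. At such levels a signal cannot be told from background.

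Windows around the annotated start sites were searched for the direct repeat bound by PPAR and RXR, spelled AGGTCANAGGTCA, on both strands and with up to 2 of its 12 fixed bases mismatched. It was searched because several members are textbook PPAR targets. RefSeq windows of GRCm38.p6 were found for 26 of the 30 measured members, but not for Acaa2, Decr1, Acat1 and Angptl4. None of the windows found held the exact motif, which 0.0396% of all 32851 windows did. Plin2, Echs1 and Etfa held it with 2 mismatches, 3 of the 26 members (11.5%). Of all windows 3.86% held it with up to 2 mismatches, a share counted over windows and not over genes. The shares were not tested against each other. The stretches on the minus strand at chr4:86670242-86670309 (Plin2), chr7:140116462-140116534 (Echs1) and chr9:55512278-55512350 (Etfa) are given with the match in capitals.
Plin2: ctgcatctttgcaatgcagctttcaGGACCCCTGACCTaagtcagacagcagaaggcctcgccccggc
Echs1: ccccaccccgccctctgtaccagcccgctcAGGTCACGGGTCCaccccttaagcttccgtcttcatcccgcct
Etfa: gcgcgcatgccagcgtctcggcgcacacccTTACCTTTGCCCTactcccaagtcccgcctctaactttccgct
The match of Echs1 runs in the direction of the gene and those of Plin2 and Etfa in the opposite direction. Plin2, Echs1 and Etfa had differences of -2.00, -0.29 and 0.05, those of Echs1 and Etfa within the probe set SD. A match is a description of these letters and not a binding site, and GC content of the member windows had a median of 60.3% against 52.7% over all windows.

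Further genes of the pathway were taken from a list of 76 companions, of which 69 were measured. Of these, 45 reached the median level, and among the 45, 6 were lower in the graft by 2-fold or more and 3 were higher by as much, beside the background of 5.68% and 3.55%. The other 24 were not 2-fold apart. The companions of mitochondrial oxidation had a median of -0.29, with 10 of 12 lower, 0 higher and 2 equal. Of the 8 that reached the median level 7 were lower, beside 54.0% of all such genes. Of the 8, 2 were lower by 2-fold or more, beside 5.68%. Slc25a20, the carrier that brings acylcarnitines across the inner membrane between Cpt1a and Cpt2, was at 6.02 in grafted and 8.08 in colonic epithelium, a difference of -2.06. With Slc25a20 included, the genes for all 3 proteins of the carnitine shuttle were lower in the graft. Acad11, a further acyl-CoA dehydrogenase, was at 5.48 on the graft array and 6.96 on the colon array (-1.48).

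The widest difference among the companions was that of Acsm3, a mitochondrial synthetase that activates short and medium chains such as butyrate. It was at 5.49 in grafted and 8.74 in colonic epithelium, a difference of -3.25 or 9.52-fold, and 0.383% of the genes reaching the median level had a lower one. The other 6 measured short-chain companions were not 2-fold apart. Acsm3, for short and medium chains, and Acsl5, for long chains, thus differed in opposite directions between these samples.

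Peroxisomal companions had a median of -0.17 over 18 genes, with 13 lower and 5 higher. Of the 9 that reached the median level 7 were lower, beside 54.0% of all such genes. Slc27a2, which takes up and activates very-long-chain fatty acids, was at 7.39 on the graft array and 5.57 on the colon array (1.82), and Nudt19, which hydrolyses CoA in peroxisomes, was at 6.30 in grafted and 7.49 in colonic epithelium (-1.19). Hsd17b4, the other bifunctional enzyme of peroxisomes, was at 7.45 on the graft array and 7.07 on the colon array (0.38), which lay beside the 0.36 of Ehhadh. None of the 3 measured ketone body companions was 2-fold apart.

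Of the 18 regulators, 16 reached the median level. Among these, 2 passed 2-fold on the lower side and 1 on the higher side, beside 5.68% and 3.55% of all such genes. Pparg was at 6.84 in grafted and 7.88 in colonic epithelium (-1.04), Ppard at 6.90 on the graft array and 7.26 on the colon array (-0.36), and Ppara at 5.45 in grafted and 5.38 in colonic epithelium, below the median level on both arrays. Ppargc1a, a coactivator of mitochondrial genes, was at 7.58 on the graft array and 8.64 on the colon array (-1.05), and its second probe set differed by -0.85, which is under 2-fold. With quantile normalization Pparg was at -0.97, also under 2-fold. Creb3l3, a membrane-bound transcription factor that in liver acts with PPAR alpha on fasting genes, was at 7.31 in grafted and 5.28 in colonic epithelium. The colon value lay below the median level, so the difference of 2.03 may be understated.

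Lipid droplet companions had a median of 0.17 over 11 genes. Of the 7 that reached the median level, 1 was at least 2-fold higher, beside 3.55% of all such genes. Cidec, which enlarges lipid droplets, was at 7.41 on the graft array and 4.98 on the colon array (2.43). Its colon value lay below the median level, so the difference may be understated. Cidec is also an adipocyte marker. The other 3 measured markers of that list were higher in the graft by 0.01 to 0.30. These 3 stayed below the median level on both arrays, so their direction is not settled. The part of such cells in the result was not tested.

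**Figure D4:**
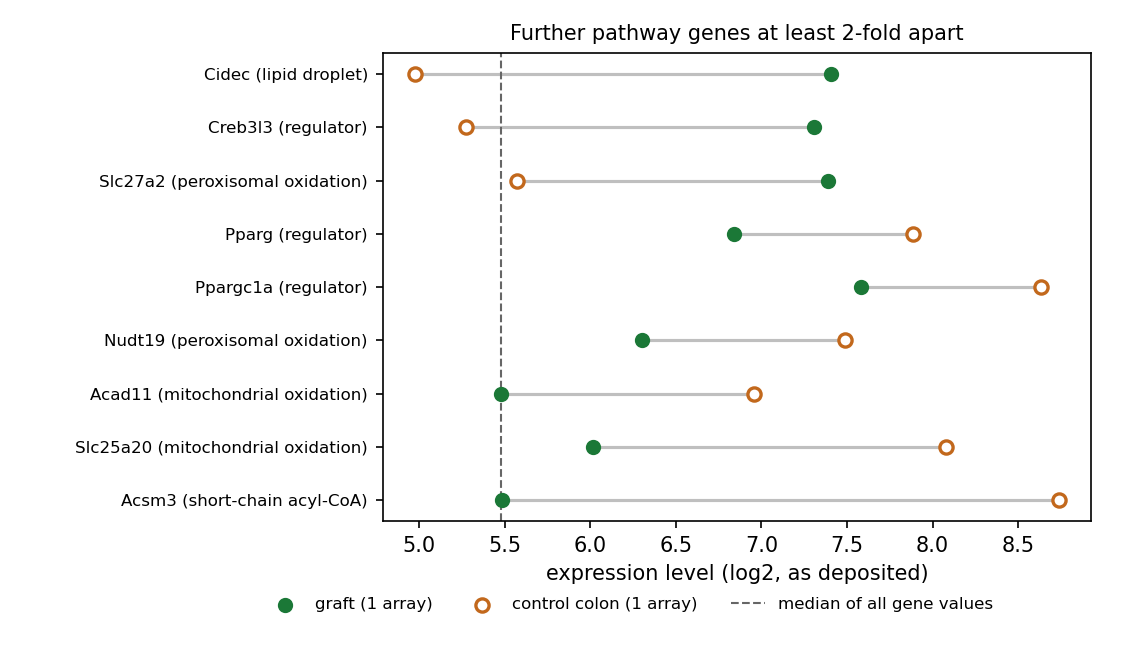
Levels on the log2 scale (horizontal axis) of the 9 companion genes at least 2-fold apart, with a filled green point for the graft array, an open orange point for the control colon array and a dashed line at the median of all gene values. Cidec, Creb3l3 and Slc27a2 have the graft point to the right, and the other 6, from Pparg to Acsm3, have it to the left.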

How the data were processed

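The table deposited by the authors gives a log2 level on each array for 24074 probe sets. Software, background correction and normalization are not given in the sources consulted. The log2 scale was inferred from the range, 4.19 to 13.37 on the graft array and 4.22 to 13.46 on the colon array. The array medians were 5.44 (graft) and 5.43 (colon), and whether arrays were centred is unknown. There is 1 channel, so no dye direction is involved.

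The platform annotation gave 1 gene symbol for 18904 probe sets, several for 1330 and none for 3840. The brightest singly named probe set by mean of both arrays stood for a gene. Entrez identifiers and symbols of the 30 measured members matched the RefSeq gene table. Differences and medians were computed with Python 3.11.15, numpy 2.4.6 and pandas 2.3.3, with no further normalization and no test, since each group has 1 array. The procedure was tested on simulated data. All members were named, and of the companions those at least 2-fold apart and at the median level, plus 8 others whatever their values, of which 5 were measured. Members and lists were chosen with earlier results of these data known. Precision is limited by having 1 array per group.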

Additional observations from a re-analysis of the deposited data

How the results depend on the processing

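Class medians and counts at 2-fold were recomputed with all probe sets of a gene averaged, with quantile normalization, with arrays centred on their medians, with a floor at the 20th percentile, without the close copies, with level filters, with means, with companions added and, as an addition after the values were seen, relative to the epithelial markers. Of these 59 values, 54 stayed within the probe set SD, or within 1.5 times for counts. Several settings could hardly move a class median. The mitochondrial median was -0.28 over the same 16 genes with the floor, without the close copies and with either level filter. The count of 54 is therefore no measure of stability. The peroxisomal median was 0.36 over the 1 member reaching the 75th percentile, Ehhadh. At 1.5-fold, 3 members were lower and 3 higher, and at 4-fold 0 were higher. Relative to the epithelial markers, which lowers every difference by 0.30, 3 members were at least 2-fold lower, beside 11.3% of all genes reaching the median level under the same shift, and Etfa, Etfdh, Decr1, Acat1, Pdk4 and Angptl4 changed sign. Such a shift moves all genes alike and says nothing particular about the members. The mitochondrial median ran from -0.58 to -0.21 and the ketone body median from 0.12 to 0.49 over their alternatives. Values of single genes moved by less than the probe set SD, but the shifts applied were themselves smaller than it and most genes have 1 probe set, so this is no measure of stability. No paired analysis was possible because each group has 1 array, and no replicate could be left out.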

Other observations

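Lists added after the values were seen describe the metabolism around the oxidation genes, with no test. Citric acid cycle enzymes, which burn the acetyl-CoA made by oxidation, had a median difference of 0.05 over 17 genes, graft minus colon. Of the 17, 6 were lower and 11 higher, beside 54.0% lower and 41.6% higher among all genes reaching the median level. Mdh2, the mitochondrial malate dehydrogenase, was at 10.55 in grafted and 9.17 in colonic epithelium, 2.60-fold higher, and Dlst, a subunit of the oxoglutarate dehydrogenase complex, differed by 0.85. Suclg2, a subunit of succinyl-CoA ligase, differed by -0.76. The mitochondrial oxidation class had a median of -0.28 on the same arrays, and the difference between these lists was not tested. Among other dehydrogenases that act on amino acids or related substrates with a flavin, 7 genes had a median of 0.03, with Gcdh of lysine breakdown at -0.55 and Prodh of proline breakdown at 0.52.

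Carriers of ketone bodies and other monocarboxylates went both ways. Slc5a8, the sodium-coupled carrier that takes up butyrate, was at 5.72 on the graft array and 9.11 on the colon array, 10.5-fold lower in the graft. Slc16a1, a proton-coupled carrier of lactate, butyrate and ketone bodies, was at 7.61 in grafted and 8.09 in colonic epithelium (-0.47). Its partner protein Bsg differed by 0.65, Slc16a6, a carrier linked to ketone body export in zebrafish liver, by 0.76, and Slc16a5 by -0.93.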
